A study of Homo sapiens with 12 samples.

Results

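The introns described here are those of the 300 protein-coding genes on the autosomes that had the most unique intron reads, summed over all 12 libraries, of 18901 such genes ranked. A unique intron read is one that the deposited tables assign to a gene outside its annotated exons and to 1 place in the genome. The genes were chosen by that sum, so their high intron counts are a description and were not tested. The quantity followed is the intron to exon ratio, the unique intron reads of a gene divided by its unique exon reads in the same library. The sum pools the XRN2 siRNA libraries with the controls. Just inside the choice were ESYT2 with 1524 intron reads and DIDO1 with 1522, and just outside it were FAM126A with 1518 and FOXK2 with 1517.

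Total RNA was taken 72 hours after reverse transfection of LN229 and U251 cells, 2 established lines grown from human glioblastomas. In each line 2 libraries were mock transfected, 2 received a non-targeting control siRNA (siNT_OTP) and 2 received siXRN2, which gives 6 groups of 2. LN229 was kept in DMEM and U251 in EMEM, with different amounts of serum, so the line and its medium cannot be told apart. Nothing in the labels says that replicates were grown separately. A p-value here therefore reflects the spread among the libraries, and that spread may be technical. The design compares RNA with and without XRN2 depletion, line by line.

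XRN2 is a nuclear exoribonuclease that digests RNA from its 5′ end. In the torpedo model of transcription termination it degrades the RNA that the polymerase keeps making once the message has been cut off at its poly(A) signal. It also trims ribosomal and small nucleolar RNA precursors and takes part in the decay of unspliced or misprocessed RNA. Intron reads in a poly(A)-selected library come from unspliced or partly spliced transcripts, from retained or detained introns, from unannotated exons, and from other genes that lie inside an intron.

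Some of these introns also carry small RNA genes, which are shown because they are the best-defined sequences inside the regions the counts cover. Of the 300 genes, 31 held a miRNA gene in an intron (37 miRNA genes, 27 of them on the strand of the host), and 9 held a snoRNA or scaRNA gene. RefSeq (GRCh38.p14) had hairpins for 33 of the 37. The mature miRNAs below sit on the strand of a host whose ratio passed a test (DHRS3) or belong to hosts that are well known as miRNA genes (TRPM3, C9orf3 and COL27A1). The second group was picked for its miRNAs after its values were seen. Capitals mark the seed, bases 2 to 8, with which a miRNA pairs to its targets.
hsa-miR-6730-5p (in DHRS3, chr1:12578996-12579018, minus strand): aGAAAGGUggagggguugucaga
hsa-miR-6730-3p (in DHRS3, chr1:12578958-12578979, minus strand): cCUGACACcccaucugcccuca
hsa-miR-204-5p (in TRPM3, chr9:70810031-70810052, minus strand): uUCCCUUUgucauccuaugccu
hsa-miR-23b-3p (in C9orf3, chr9:95085265-95085287, plus strand): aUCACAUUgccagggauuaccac
hsa-miR-27b-3p (in C9orf3, chr9:95085505-95085525, plus strand): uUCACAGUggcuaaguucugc
hsa-miR-455-5p (in COL27A1, chr9:114209449-114209470, plus strand): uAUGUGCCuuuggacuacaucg
hsa-miR-455-3p (in COL27A1, chr9:114209487-114209507, plus strand): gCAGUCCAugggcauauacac
The 7 sequences have 7 different seeds. The libraries do not measure mature miRNAs, so only the host genes' reads are reported below.

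Each library held 4167694 to 6552755 unique exon reads and 227693 to 611360 unique intron reads. The 300 genes took 12.9% to 14.0% of all intron reads in LN229 and 16.4% to 17.5% in U251. Levels are given as CPM, reads per 1000000 scaled unique exon reads of the library. Where no read was seen, up to 3 may have been missed by counting alone, or 0.456 to 0.750 CPM. In bulk RNA, fewer cells with a transcript and less of it per cell cannot be told apart. VIM and CD44, both among the 300, were high in each line, and GFAP exon reads were 2769 to 8086 CPM in U251 but 1.27 to 3.95 CPM in LN229. SOX2 was listed at 0 CPM in every LN229 library and reached 0.354 CPM in U251, and the blood markers PTPRC, CD3E, CD14, HBB and HBA1 stayed under 1 CPM everywhere. Of the epithelial markers EPCAM and CDH1 stayed under 0.4 CPM, while the keratin genes KRT8 and KRT18 had 21.6 to 40.0 and 37.0 to 95.5 CPM in LN229 and 5.87 to 8.87 and 11.7 to 23.3 CPM in U251.

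The siRNA target was checked first. XRN2 itself ranked 455 by intron reads and is not one of the 300. Its exon reads were 274, 280 and 292 CPM in the LN229 controls, 250 CPM in LN229 control siRNA replicate 1, and 39.7 and 30.9 CPM after XRN2 siRNA. In U251 they were 158 to 171 CPM in the 4 controls and 36.4 and 30.9 CPM after XRN2 siRNA. In LN229 the intron reads of XRN2 did not move with them, with 26.03 and 27.9 CPM after siRNA against 27.0 to 28.9 CPM in the controls. In U251 they were 15.9 and 13.1 CPM against 15.5 to 18.4 CPM, a log2 change of -0.26 ± 0.17 (SE) that was not called. The LN229 ratio of XRN2 was therefore 0.656 and 0.904 against 0.0933 to 0.103. The log2 change of the ratio was 2.94 ± 0.18 (SE) in LN229 and 2.05 ± 0.20 in U251 (edgeR adjusted p = 4.8e-38 and 1.6e-16).

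2 libraries stood apart. LN229 control siRNA replicate 1 had the lowest share of intron reads, and its median ratio over the 300 genes was 0.140, against 0.257 to 0.283 in the other LN229 controls. It is shown apart and was left out of the fits, and counts of called genes with it included are given below. U251 mock replicate 2 had 23042 CPM of exon reads for HSPA5 (BiP, a chaperone of the endoplasmic reticulum) against 1810 to 1937 CPM in the other U251 controls, and 5703 CPM for PDIA4, a disulfide isomerase of the same compartment, against 1448 to 1579 CPM. Both are among the 300 genes. This library stayed in the fits.

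The 300 genes were longer than most and had more retained-intron annotation. Their median gene length was 58588.5 bases against 41108.5 in the other 9842 autosomal protein-coding genes tested, and 102 of them (34.0%) spanned over 100 kb, against 23.7%. An annotated transcript with a retained intron existed for 221 (73.7%), against 61.5% of the others. The median ratio in the 7 controls used was 0.271 against 0.106, and the median density, intron reads per intron base as a percentage of exon reads per exon base, was 3.40% against 1.75%. These figures describe the choice, since intron reads made it. In 204 of the 300 part of the intron sequence lies in exons of another gene, and in 40 that part exceeds 5% of the intron bases.

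The sum was led by a few genes. FAM20C, a kinase of the secretory pathway, had 41509 intron reads, VMP1, a membrane protein of the endoplasmic reticulum needed for autophagy, had 27395, and FBXO32, a muscle atrophy ubiquitin ligase subunit, had 14299. Then came the complement inhibitor CD59 (9484), the semaphorin co-receptor NRP2 (8440), the adhesion receptor NECTIN3 (8149), tropomyosin TPM1 (7528), caldesmon CALD1 (7432), the phosphodiesterase PDE1C (7136) and the histone variant H2AFV (7042). The median of the 300 was 2049.5 and the lowest was 1522.

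The ratio itself spanned 4 orders of magnitude. At the low end were abundant mRNAs with few intron reads for their exon reads, the glycolytic enzymes PKM and ENO1 (both 0.00913 to 0.00914 over the controls), HSPA5 (0.00923), VIM (0.0114) and ANXA2 (0.0149). At the high end were genes with almost no exon reads, led by FAM182B with 2275 intron and 15 exon reads, then C22orf23 (66 exon reads), APC2 (149), NKAIN3 (210) and ANKDD1A (218). In C22orf23, 18.2% of the intron bases lie in exons of other genes, and in APC2 8.31%. In 43 of the 300 intron reads outnumbered exon reads in the controls. Across 297 genes with a ratio in both lines, the control ratios of LN229 and U251 ranked alike (Spearman 0.92, a description over genes, which are not replicates).

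**Figure D1:**
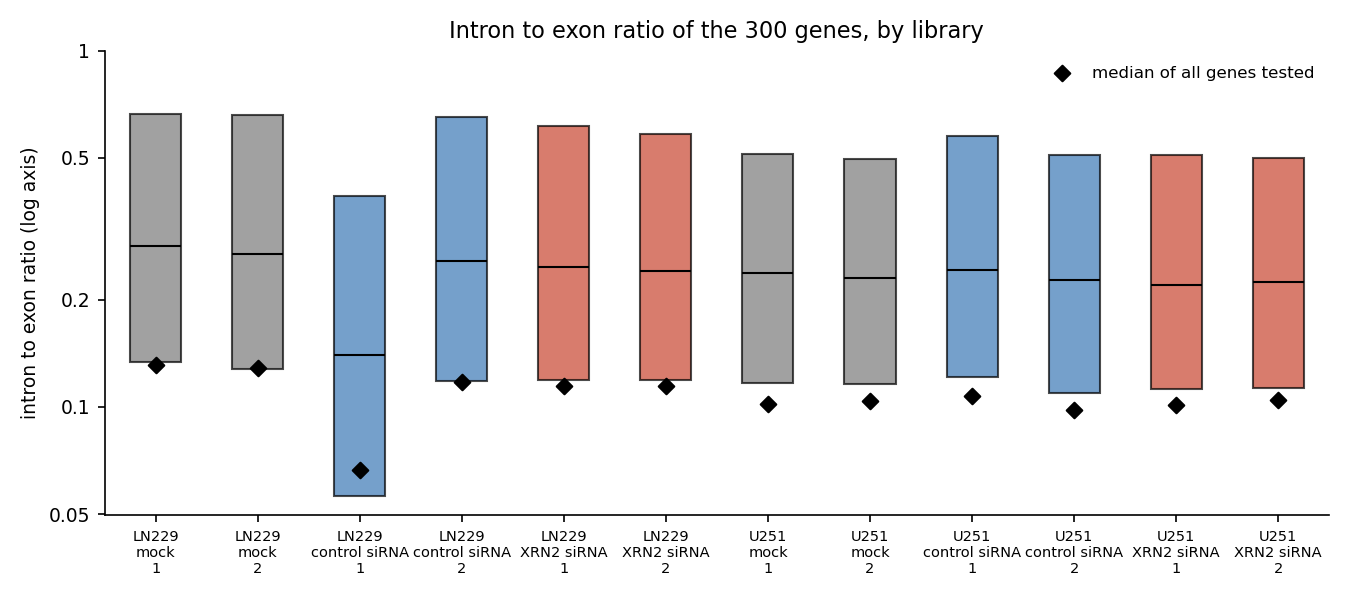
Intron to exon ratio (log axis) of the 300 genes in each of the 12 libraries; boxes span the quartiles, the line is the median, and diamonds are the median of all 11394 genes tested. LN229 control siRNA replicate 1 lies below every other library, and the XRN2 siRNA medians (0.247 and 0.241 in LN229, 0.219 and 0.224 in U251) lie just under those of the controls.

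After XRN2 siRNA the median ratio of these genes was not above that of the controls used in the fits. Of the 300, 296 had enough reads to be tested (at least 5 reads of each kind in at least 2 libraries). FAM182B and 3 genes with clone-derived names, AC108488.2, AC099850.2 and AC058822.1, had 0 to 15 exon reads in all and were not. The median ratio was 0.247 and 0.241 in the LN229 XRN2 siRNA libraries against 0.257 to 0.283 in the 3 controls, and 0.219 and 0.224 in U251 against 0.227 to 0.242. LN229 control siRNA replicate 1, at 0.140, was below all of them, and with it among the controls the median LN229 change turned to 0.066. Without it the median log2 change was -0.12 in LN229, where all 11394 genes tested had a median of -0.14, and -0.03 in U251, where all genes had -0.02. The ratio was below its control level in 203 of 296 genes in LN229 (68.6%, against 65.1% of all genes) and in 164 in U251 (55.4% against 52.9%).

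The median of all genes in LN229 moves with the scaling. With intron reads scaled on their own, it went from -0.14 to -0.02, and the median of the 296 genes to 0.00068. Changes in LN229 given below are stated without that correction, so a gene at -0.14 moved as the median gene did.

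Single genes did change in LN229. By edgeR's quasi-likelihood test on the intron and exon reads of all genes, the ratio rose in 5 of 296 genes (background 0.246% of all genes tested) and fell in 11 (background 0.535%). With intron reads scaled on their own the split turned to 10 higher and 3 lower, and 8 of the 16 genes were called under both scalings. The shares called, 1.69% and 3.72%, were above the background, and these genes also had more reads to test with, a median of 148 to 232 intron reads per LN229 library used against 18 to 29 over all genes tested. Including LN229 control siRNA replicate 1 left 0 of 296 called by edgeR, with 20 at an unadjusted p under 0.05. DESeq2, without that library, called 1 and limma on log2 ratios 22. Single libraries also decided the count, which was 1 without LN229 XRN2 siRNA replicate 2, 6 and 5 without LN229 mock replicate 1 or 2, 8 without LN229 control siRNA replicate 2, and 22 without U251 mock replicate 2.

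In SLC6A6 (chr3:14402576-14489349, plus strand, GRCh38), the taurine transporter, the ratio was 0.108, 0.114 and 0.110 in the LN229 controls (0.0622 in control siRNA replicate 1) and 0.0477 and 0.0417 after XRN2 siRNA. The XRN2 siRNA libraries were below all 4 controls, and the log2 change was -1.31 ± 0.17 (SE, adjusted p = 8.5e-10). The intron reads were 28.9 ± 3.6 CPM (SD, n = 2) against 29.01 ± 1.4 CPM (n = 3), while the exon reads rose from 262 ± 17 to 654 ± 144 CPM (log2 change 1.36 ± 0.33, adjusted p = 0.038). This gene held its call in 23 of 24 alternatives, all but the one with control siRNA replicate 1.

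In ABCC3, an exporter of organic anions and drug conjugates, the ratio was 0.318, 0.347 and 0.325 in the controls (0.229 in control siRNA replicate 1) and 0.207 and 0.177 after XRN2 siRNA. No library overlapped, and the log2 change was -0.78 ± 0.16 (adjusted p = 0.0015), with exon reads higher by 0.45 ± 0.09 (adjusted p = 0.0084) and an intron change of -0.34 ± 0.16 that did not pass. DHRS3, a retinaldehyde reductase and the host of miR-6730 printed above, fell by 0.60 ± 0.16 (adjusted p = 0.044) from 0.360, 0.390 and 0.371 to 0.270 and 0.226. Control siRNA replicate 1 had 0.151 for this gene, lower than both XRN2 siRNA libraries. The exon reads of DHRS3 rose by 0.60 ± 0.13 on the log2 scale and its intron reads moved by -0.01 ± 0.17.

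LPCAT2, an acyltransferase of phospholipid remodelling, is the one called gene with more intron than exon reads in LN229. Its ratio was 7.39, 9.13 and 7.80 in the controls (9.81 in control siRNA replicate 1) and 5.53 and 3.50 after XRN2 siRNA, on only 5.34 ± 0.77 exon CPM in the controls. Both kinds of read rose in LN229, exon reads by 1.55 ± 0.22 (adjusted p = 0.0011) and intron reads by 0.66 ± 0.16 (adjusted p = 0.018), and the ratio changed by -0.87 ± 0.24 (adjusted p = 0.042). In U251, where LPCAT2 had a ratio of 0.0752 to 0.207 in the controls, the values after XRN2 siRNA were 0.191 and 0.189, inside the control range.

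In RUNX1, a transcription factor with a gene of 1216867 bases (chr21:34787801-36004667, minus strand), the ratio was 0.421, 0.438 and 0.449 in the controls and 0.276 and 0.240 after XRN2 siRNA (log2 change -0.75 ± 0.16, adjusted p = 0.0014), with 0.189 in control siRNA replicate 1. Its intron change was -0.54 ± 0.16 and its exon change 0.22 ± 0.10, and neither passed alone. ARIH2, a ubiquitin ligase, changed by -0.64 ± 0.17 (adjusted p = 0.038) and FBXL5, the iron-sensing F-box protein, by -0.59 ± 0.16 (adjusted p = 0.044). In these 3 genes neither the exon nor the intron reads passed on their own.

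FAM20C (chr7:192969-260745, plus strand), first by intron reads, had a lower ratio and fewer exon reads in LN229. Its ratio was 0.710, 0.617 and 0.662 in the controls (0.343 in control siRNA replicate 1) and 0.492 and 0.374 after XRN2 siRNA (-0.62 ± 0.15, adjusted p = 0.010). Exon reads fell by 0.68 ± 0.19 (adjusted p = 0.041) and the intron change, -1.29 ± 0.29, missed the threshold (adjusted p = 0.063). In U251 the ratio was 2.34 to 2.89 in the controls and 2.10 and 1.87 after XRN2 siRNA, below every U251 control, and that change did not pass (-0.38 ± 0.14). The other called falls were PMEPA1, a TGF-beta-induced membrane protein, at -0.56 ± 0.15 (adjusted p = 0.038) and KIAA1755 at -0.51 ± 0.14 (adjusted p = 0.038), each with called rises of exon reads.

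The 5 rises came mostly with fewer exon reads. In VCL (chr10:73995193-74121363, plus strand), vinculin, which links adhesions to actin, the ratio was 0.101, 0.0904 and 0.0939 in the LN229 controls and 0.165 and 0.170 after XRN2 siRNA (0.0530 in control siRNA replicate 1). The log2 change was 0.81 ± 0.19 (adjusted p = 0.0086), exon reads fell by 0.74 ± 0.13 (adjusted p = 0.0036) and intron reads moved by 0.08 ± 0.17. In VOPP1 the ratio went from 0.115, 0.124 and 0.102 to 0.169 and 0.225, with exon reads at 304 ± 5.8 CPM in the controls and 185 and 98.5 CPM after XRN2 siRNA (exon change -1.06 ± 0.21, adjusted p = 0.013; intron change -0.32 ± 0.17, not called; ratio change 0.74 ± 0.17, adjusted p = 0.0089). The Sm core protein gene SNRPD3 (0.65 ± 0.16, adjusted p = 0.011) and APMAP (0.60 ± 0.16, adjusted p = 0.038) also had called falls of exon reads and intron changes of 0.09 and 0.02. In SNRPD3, 9.51% of intron bases lie in exons of other genes.

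In CD59 (chr11:33698261-33736445, minus strand) the exon reads did not pass. Its ratio was 0.184, 0.186 and 0.183 in the LN229 controls, 0.169 in control siRNA replicate 1, and 0.250 and 0.291 after XRN2 siRNA (0.55 ± 0.15, adjusted p = 0.037). Here the intron reads were 189 and 197 CPM against 135 to 139 CPM in the controls (change 0.53 ± 0.17, adjusted p = 0.11) and the exon change was -0.02 ± 0.09.

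**Figure D2:**
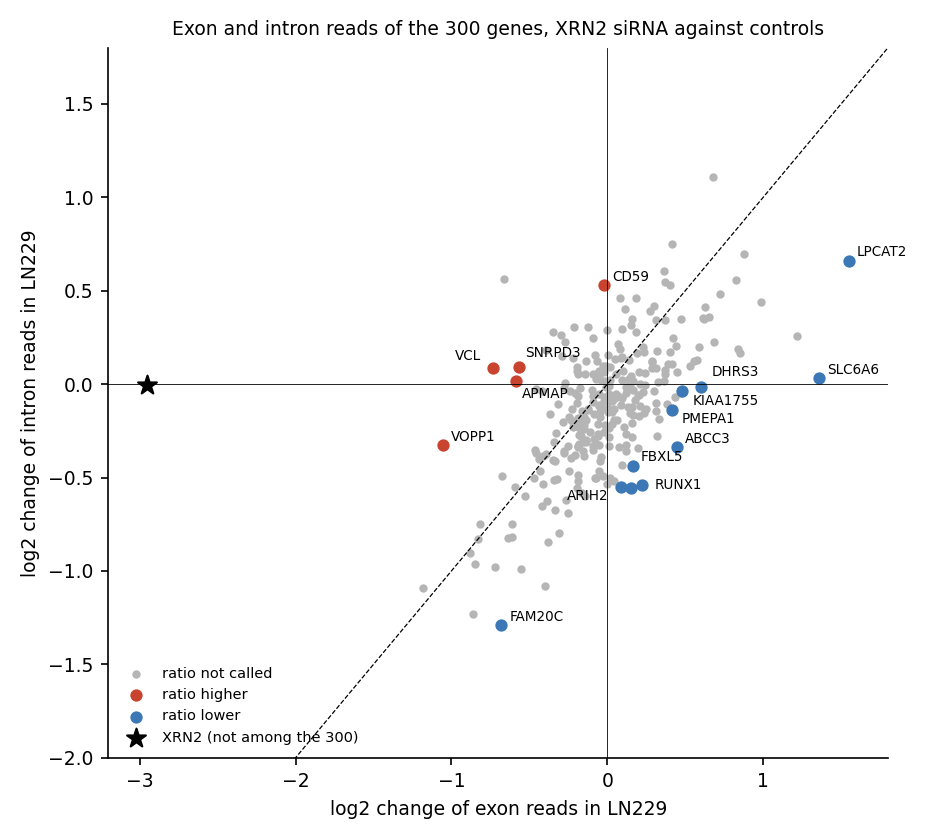
Log2 change of exon reads (x axis) and of intron reads (y axis) in LN229 for the genes tested, XRN2 siRNA against controls; the dashed line marks equal change, red marks a called higher ratio and blue a called lower one, 3 genes lie outside the axes, and the star is XRN2. VCL, SNRPD3 and APMAP lie to the left of the line and near 0 on the intron axis, as XRN2 does, and SLC6A6 lies to the right.

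Counted over the 16 called genes, exon reads passed their own test in LN229 in 11, and intron reads in 1, LPCAT2. Of the 5 rises, 4 had called falls of exon reads. Of the 11 falls, 6 had called rises of exon reads and FAM20C a called fall. Over the 296 genes the ratio change in LN229 ranked with the exon change at Spearman -0.44 and with the intron change at 0.38, which the ratio's definition in part fixes.

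**Figure D3:**
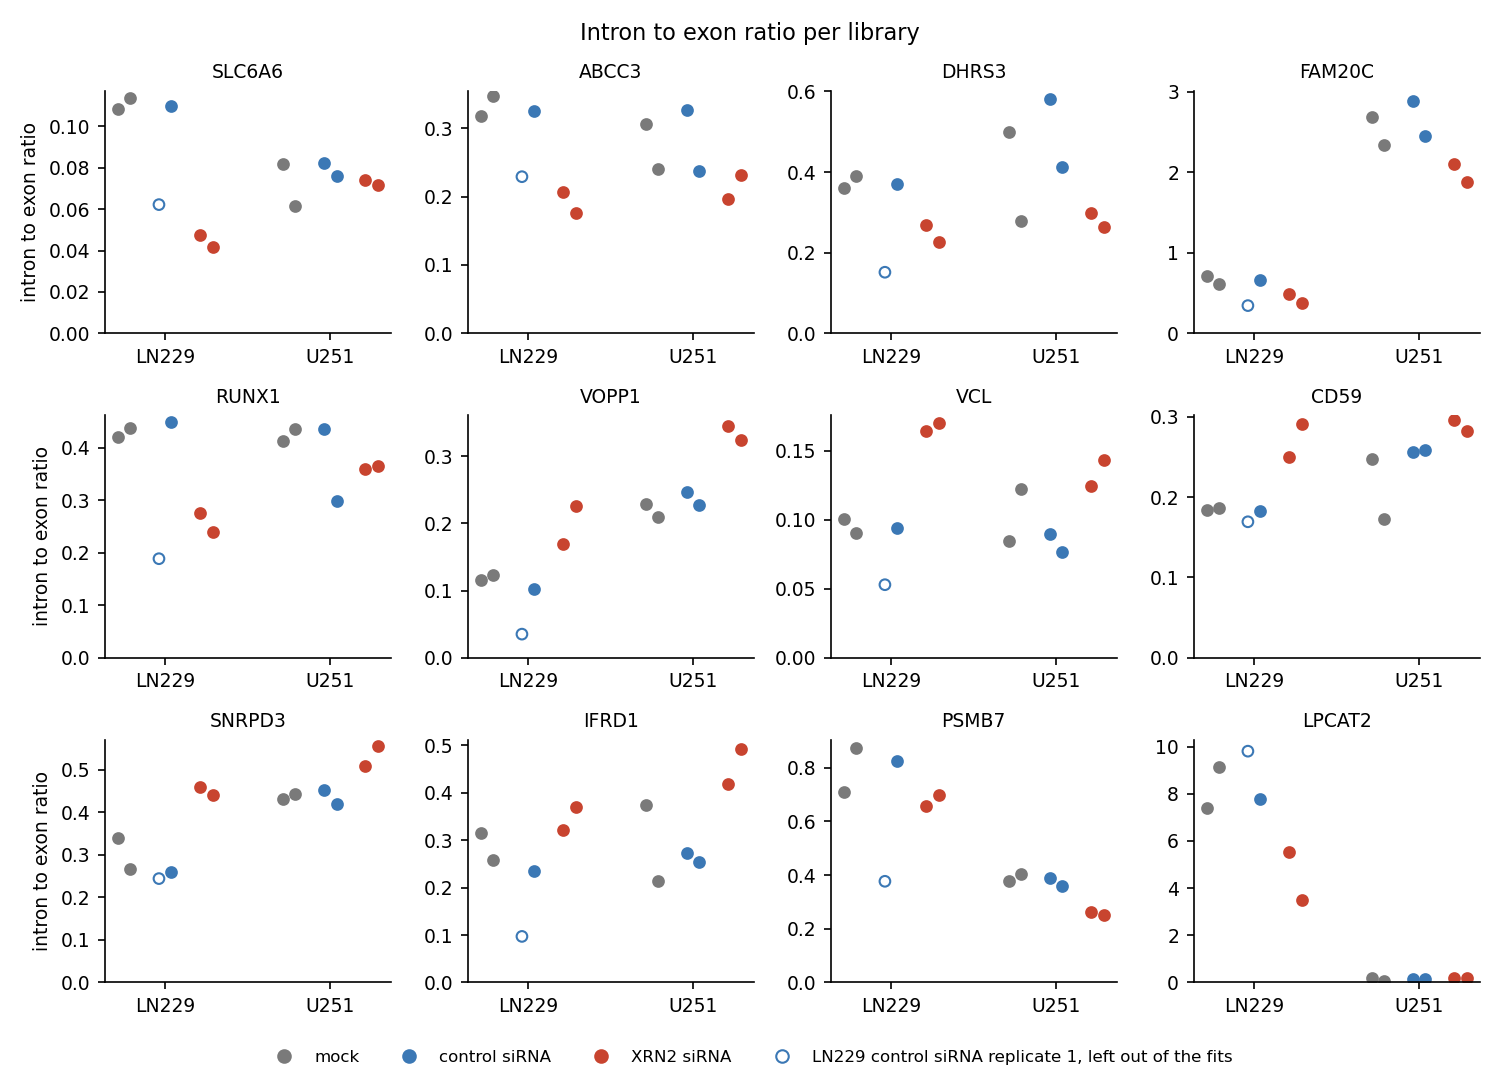
Intron to exon ratio (linear axes from 0) of 12 called genes in each library of LN229 and U251; grey is mock, blue control siRNA and red XRN2 siRNA, filled points are libraries in the fits, and the open circle is LN229 control siRNA replicate 1. In SLC6A6 the XRN2 siRNA points leave the controls in LN229 (0.0477 and 0.0417) and stay among them in U251 (0.0739 and 0.0717).

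In U251 a single gene passed. IFRD1 (chr7:112422968-112481017, plus strand), a regulator named for its link to interferon and differentiation, had the 1 called rise among the 296 (background 0.079%), and no gene had a called fall by edgeR (background 0.0176%). Its ratio was 0.375 and 0.213 in mock, 0.273 and 0.253 with control siRNA, and 0.418 and 0.492 after XRN2 siRNA. Both XRN2 siRNA libraries were above all 4 controls, and the log2 change was 0.74 ± 0.15 (adjusted p = 0.0048). The call was lost without U251 XRN2 siRNA replicate 2 (0.63, adjusted p = 0.65), and the change was 0.61 (adjusted p = 0.035) without U251 mock replicate 2, whose IFRD1 exon reads were 219 CPM against 122 to 129 CPM in the other U251 controls. It was also lost by DESeq2 (adjusted p = 1.0), by limma (adjusted p = 0.30), with U251 fitted alone (adjusted p = 0.065) and with LN229 control siRNA replicate 1 included (adjusted p = 1.0). At an unadjusted p under 0.05, 27 of the 296 genes passed in U251, and 699 of all 11394. DESeq2 called no gene of the 296, limma called 4 others, and edgeR called 0 with LN229 control siRNA replicate 1 included and 3 without U251 mock replicate 2. Next in p, and not past the threshold, were the positive changes of VOPP1 (0.55 ± 0.14, adjusted p = 0.055), VCL (0.53 ± 0.14, adjusted p = 0.15), SNX24 and RASA1, and the negative changes of PSMB7 (-0.58 ± 0.15, adjusted p = 0.065), DHRS3 (-0.62 ± 0.16, adjusted p = 0.094), DNM1, AHRR and FAM20C.

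Averaged over both lines, 9 genes had a higher ratio (background 0.439%) and 12 a lower one (background 0.623%). With intron reads scaled on their own the split was 13 higher and 4 lower, and 13 of the 21 genes were called under both scalings. With LN229 control siRNA replicate 1 included edgeR called 0 of 296, with 22 at an unadjusted p under 0.05, and DESeq2 without it called 2. The count was 6 without LN229 XRN2 siRNA replicate 2, 13 without LN229 mock replicate 2, 9 without either of the U251 XRN2 siRNA replicates, and 22 without U251 mock replicate 2. The lowest adjusted p values were those of SLC6A6 (-0.69 ± 0.12), VOPP1 (0.65 ± 0.11, adjusted p = 2.8e-05), VCL (0.67 ± 0.12) and ABCC3 (-0.58 ± 0.11), then DHRS3 (-0.61 ± 0.11). All 21 genes had the same sign in both lines, which a mean of lines favours.

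PSMB7, a catalytic subunit of the 20S core, had ratios of 0.710, 0.873 and 0.823 in the LN229 controls and 0.656 and 0.698 after XRN2 siRNA, and 0.360 to 0.404 in the U251 controls against 0.262 and 0.250. The mean change was -0.41 ± 0.10 (adjusted p = 0.013, a call kept in 14 of 23 alternatives), with exon changes of -0.07 ± 0.08 and 0.00 ± 0.07. PSMD14, the deubiquitinase of the 19S lid, had 0.412, 0.377 and 0.400 in the LN229 controls and 0.514 and 0.622 after XRN2 siRNA, and 0.501 to 0.521 against 0.628 and 0.569 in U251. Its mean change was 0.37 ± 0.10 (adjusted p = 0.042), a call kept in 9 of 23 alternatives.

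Among the other genes called in the mean were the rises of HUS1, part of a DNA damage clamp (0.52 ± 0.14), the sorting nexin SNX24 (0.51 ± 0.12) and the hyaluronan receptor CD44 (0.42 ± 0.12). CD44 had 0.0293, 0.0325 and 0.0260 in the LN229 controls against 0.0436 and 0.0399, and 0.0251 to 0.0330 in the U251 controls against 0.0372 and 0.0378. The falls included the endocytic GTPase DNM1 (-0.48 ± 0.12), ZNF83 (-0.46 ± 0.11) and the translation elongation factor subunit EEF1D (-0.37 ± 0.10). In EEF1D 20.3% of intron bases lie in exons of other genes, and the strand of a read is not kept.

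**Figure D4:**
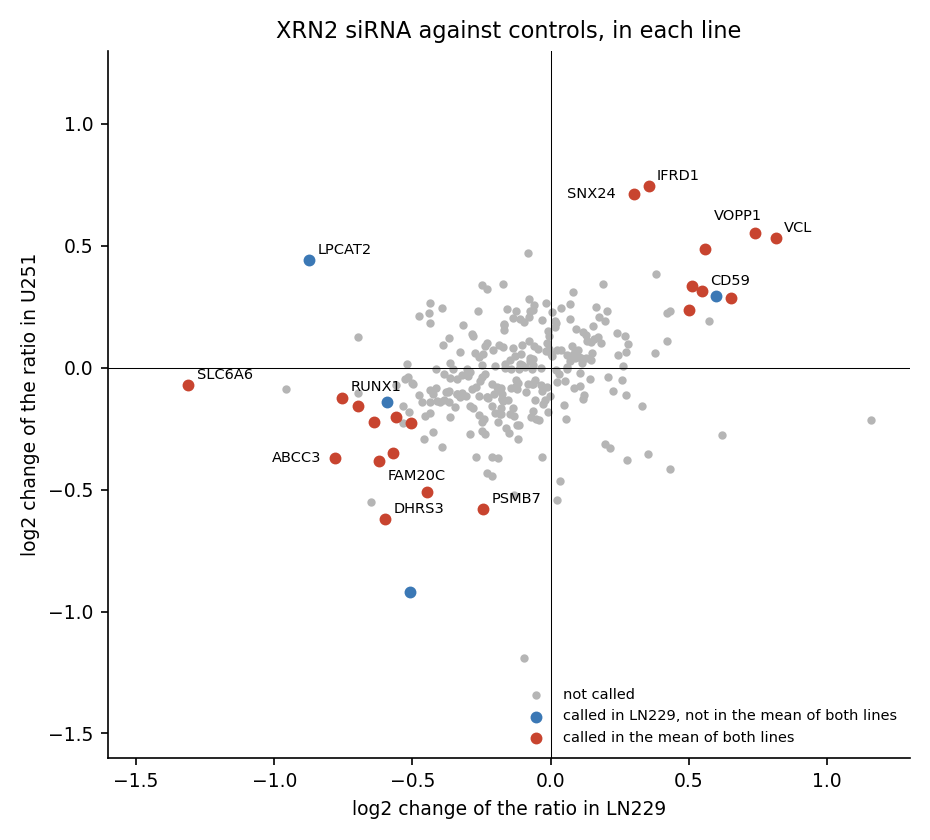
Log2 change of the intron to exon ratio after XRN2 siRNA in LN229 (x axis) and U251 (y axis) for the genes tested; red points were called in the mean of both lines, blue points in LN229 but not in that mean, and 5 genes lie outside the axes. SLC6A6 lies far left near 0 on the U251 axis, and VOPP1 and VCL lie in the upper right.

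Across the 296 genes the changes in LN229 and U251 ranked with a Spearman correlation of 0.37, against 0.12 over the other 11098 genes tested, whose counts are lower. The sign was shared by 201 genes, 136 lower in both and 65 higher in both. The lines use separate libraries, and the genes are not independent replicates. The difference between the lines was itself tested, and 1 of 296 genes passed (background 0.0176% in either direction). That gene was SLC6A6, whose change was -1.31 in LN229 and -0.07 ± 0.16 in U251, a difference of -1.24 ± 0.23 (adjusted p = 0.0020). Without LN229 XRN2 siRNA replicate 2 it was -1.14 (adjusted p = 0.22), and without U251 XRN2 siRNA replicate 1 it was -1.22 (adjusted p = 0.057). The call was also lost by DESeq2 (-1.25, adjusted p = 0.18), with control siRNA alone as the control (-1.18, adjusted p = 0.33) and with all 4 LN229 controls (-1.08, adjusted p = 1.0), where no gene of the 296 was called. LPCAT2 (-1.32 ± 0.35), HDAC9, FBXO32 and RUNX1 had the next lowest p among falls in LN229, and PIGF, AHRR, ZNF675, CDH4 and PDAP1 among rises, and none of these passed.

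Where both XRN2 siRNA libraries lay outside all controls used in the fits was counted without a model. LN229 control siRNA replicate 1 was left out here too, and counts with it included are not given. It was lower than the other LN229 controls in 261 of the 296 genes. In FAM20C, listed further on, it was also lower than both XRN2 siRNA libraries. In LN229 the ratio was above all 3 controls in 35 of 296 genes (background 7.91%) and below in 97 (background 21.0%). In U251 it was above all 4 controls in 26 (background 6.57%) and below in 23 (background 7.48%). In both lines together 11 genes were above (background 1.05%): CD59, HNRNPH1, PSMD14, VOPP1, CD44, SNX24, VCL, SNRPD3, IFRD1, APMAP and HUS1. Another 8 were below (background 2.26%): FAM20C, PSMB7, KIAA1755, ABCC3, DNM1, SORBS2, RUFY3 and COL27A1. The share below in both lines, 2.70% of the 296, is near the background, and the share above, 3.72%, is larger. The 296 genes also had more reads. Their median was 148 to 232 intron reads per LN229 library used and 152 to 196 in U251, against 18 to 29 and 16 to 20 over all genes tested. Whether read depth accounts for the shares was not tested.

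The level of intron reads, apart from any ratio, was tested too. In LN229 intron reads rose in 5 genes (background 0.685%) and fell in 15 (background 1.23%), while exon reads rose in 23 (background 5.63%) and fell in 28 (background 6.05%). With TMM factors of the intron reads themselves the intron split was 10 higher and 9 lower (132 and 69 over all genes). With all 4 LN229 controls edgeR called intron reads in 0 genes, with 22 at an unadjusted p under 0.05, and exon reads in 26. The intron count was 1 without LN229 XRN2 siRNA replicate 2, 9 without LN229 mock replicate 1 and 10 without LN229 mock replicate 2 or LN229 control siRNA replicate 2. The exon count was 5, 30, 29 and 27 without those libraries in that order, and 84 without LN229 XRN2 siRNA replicate 1. Without U251 mock replicate 2 the counts were 50 for intron reads and 103 for exon reads. In 15 of the 20 genes with called intron reads, exon reads were called in the same direction, and the ratio was called in 1, LPCAT2. Intron reads of the integrin gene ITGA3 were 62.1, 44.2 and 47.1 CPM in the controls and 31.4 and 21.4 CPM after XRN2 siRNA (-0.91 ± 0.17, adjusted p = 0.0013), and its exon reads fell by 0.88 ± 0.13, with a ratio change of -0.03. H2AFV fell in intron reads by 0.83 ± 0.15 and in exon reads by 0.64 ± 0.14. COL11A1, a fibrillar collagen, rose from 55.0 to 62.3 CPM of intron reads to 91.6 and 96.2 CPM (0.70 ± 0.15, adjusted p = 0.0045), with exon reads up by 0.87 ± 0.09.

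Other genes with fewer intron reads in LN229 included KIFC1, a mitotic kinesin (-0.97 ± 0.18), HJURP, a centromere chaperone (-0.98 ± 0.19), paxillin PXN (-0.68 ± 0.17), the cadherin CDH13 (-1.23 ± 0.28), and FBXO32 (-1.08 ± 0.19, adjusted p = 0.00047). LYST (0.53 ± 0.15), LPCAT2, NDRG1 (1.11 ± 0.23) and ZNF675 (0.75 ± 0.16) gained them. These genes were named after their values were seen. In U251 no gene of the 296 was called by edgeR for intron reads (background 0.0878% in either direction; 27 at an unadjusted p under 0.05) or for exon reads (background 0.184%; 49). Without U251 mock replicate 2, intron reads were called in 50 genes in LN229 and 3 in U251, and exon reads in 103 and 8.

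None of the 3 hosts picked for their miRNAs was called. TRPM3, which holds miR-204, had ratios of 15.3, 11.99 and 13.9 in the LN229 controls and 17.7 and 5.97 after XRN2 siRNA, and 1.85 to 2.67 in the U251 controls against 2.40 and 2.997, with overlap in each line. C9orf3, host of miR-23b and miR-27b, had control ratios of 0.948, 0.935 and 0.723 in LN229, where XRN2 siRNA gave 0.802 and 0.623. Its U251 controls ran from 0.775 to 0.808, and both XRN2 siRNA libraries, 0.827 and 0.903, were above them. COL27A1, host of miR-455, was below all controls used in the fits in both lines, with 0.237 and 0.245 in LN229 (controls 0.281 to 0.307) and 0.276 and 0.291 in U251 (controls 0.351 to 0.385). The LN229 changes were -0.44 ± 0.26, -0.28 ± 0.16 and -0.27 ± 0.16 in that order.

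Splicing regulators, many of which are known for detained introns, gave 9 of the 300 genes: SRSF11, ARGLU1, TRA2A, DDX5, RBM39, TRA2B, SRSF6, SRSF4 and ACIN1. Of the 32 tested genes of that list none was called in either line by edgeR, DESeq2 or limma (2 and 0 at an unadjusted p under 0.05 by edgeR), and the list's median change was -0.08 in LN229 and -0.02 in U251, against -0.14 and -0.02 over all genes. An intron that an annotated transcript retains counts as exon in these data. A change of such an intron could therefore be missed by this ratio. SRSF11 had 0.242, 0.236 and 0.237 in the LN229 controls and 0.249 and 0.332 after XRN2 siRNA (0.26 ± 0.15). ARGLU1 had 0.703, 0.658 and 0.706 against 0.797 and 0.707 (0.13 ± 0.15), and DDX5, an RNA helicase, had a change of -0.26 ± 0.17.

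Other lists had few of the 300 genes. Termination and 3′ end processing gave CPSF6 (LN229 change -0.21 ± 0.16), and of its 26 tested genes 1 was called higher in each line, XRN2 itself. No gene of the nuclear RNA surveillance list was among the 300, and none of its 25 tested genes was called by edgeR, DESeq2 or limma (3 and 1 at an unadjusted p under 0.05; median -0.05 in LN229 and -0.01 in U251). Of 32 snoRNA hosts the 3 tools called none (2 in each line at an unadjusted p under 0.05; median -0.10 and -0.11), and CCT6A had -0.23 ± 0.19 in LN229. HSPA5 and PDIA4 were 2 of 24 stress response genes, of which the 3 tools called none (2 and 5 at an unadjusted p under 0.05). The median of that list was 0.07 in LN229 and -0.26 in U251, and the U251 values include mock replicate 2. RUNX1, EGFR and CDH13 came from 35 long adhesion and signalling genes, of which RUNX1 was the 1 called, in LN229 and in the mean. EGFR had 0.0460, 0.0543 and 0.0544 in the LN229 controls and 0.0426 and 0.0548 after XRN2 siRNA.

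Overlap with exons of other genes was counted beside the calls. Among the 38 tested genes with over 5% of intron bases in such exons, 2 were called in LN229 and 3 in the mean, and among the other 258, 14 and 18. The median LN229 change was -0.10 and -0.12 in the 2 classes.

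**Figure D5:**
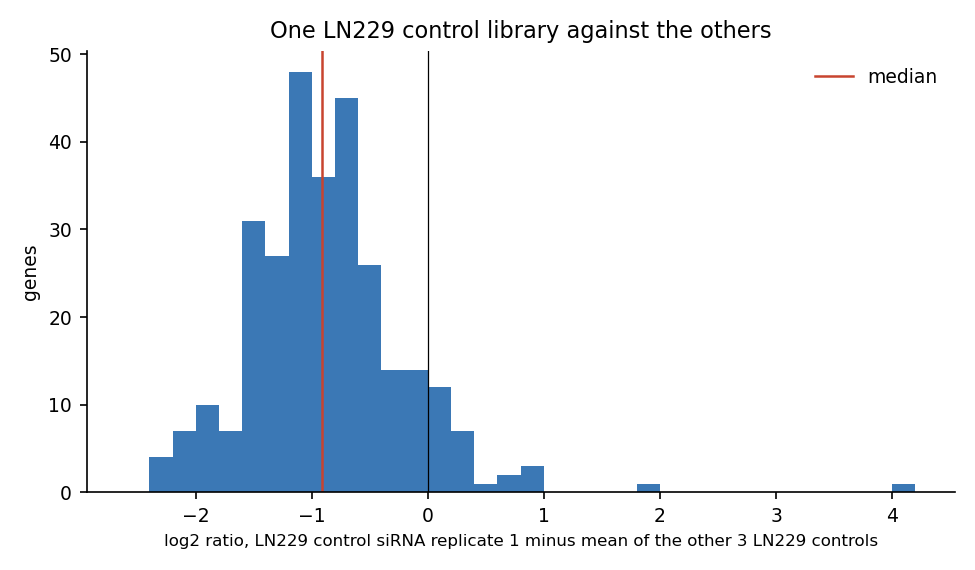
Log2 ratio of the genes tested in LN229 control siRNA replicate 1 minus the mean of the other 3 LN229 controls (x axis, 0.5 added to each count) and the number of genes (y axis). The median is -0.91, and 269 of 296 genes lie below 0.

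LN229 control siRNA replicate 1 was lower than the other 3 LN229 controls in 261 of 296 genes and above them in 17. The median log2 difference was -0.91 for the 296 and -0.75 for all genes tested. Exon reads of the 296 differed by a median of -0.02 and intron reads by -0.97. The widest gaps were in HNRNPD (0.0291 against 0.141 to 0.155), GPI, TRA2A (0.137 against 0.567 to 0.759), TRA2B (0.0292 against 0.120 to 0.152) and SERPINE2. At the other end MFAP3 (1.78 against 0.885 to 0.907) and PTPRS (0.739 against 0.329 to 0.414) were higher in it, while CDH4, GLDN and C5orf46 had few or no LN229 reads. The log2 difference ranked weakly with intron length (Spearman 0.19). The sign is positive, so genes with longer introns tended to have the smaller fall. The cause was not tested, and the labels give this library no batch of its own.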

How the data were processed

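Poly(A)-selecting, unstranded libraries (TruSeq RNA LT v2, per the labels' protocols) gave 1 table of 58174 genes per library. The authors deposited counts of unique reads in exons, across exon junctions and in introns for each gene, per the file headers. Which aligner and counter made them is not stated in the sources used here. GRCh37 and hg19 stand in the submitters' processing notes, yet the positions of 96.9% of the 57836 genes also in GENCODE 29 are those of GRCh38. For 94.0% of them the exon length equals the union of all annotated exons, so an intron that an annotated transcript retains counts as exon.

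Each library entered edgeR 4.0.16 (R 4.3.3) as 2 columns, exon and intron reads, with the same TMM-scaled exon total, a term per library and an intron term per line and condition. Contrasts compared XRN2 siRNA with mock and control siRNA together by the quasi-likelihood test, with Benjamini-Hochberg adjustment at 0.05 over all genes with at least 5 reads of each kind in at least 2 libraries. LN229 control siRNA replicate 1 was left out. Intron and exon levels were fitted alike, and CPM are reads per 1000000 TMM-scaled exon reads. The SE of a log2 change was derived as its absolute size divided by the square root of the test's F statistic. Named genes are those with most intron reads, the extreme ratios, the called genes with the smallest p, the extremes of the library left out and list members. The procedure was tested on simulated data. Alternatives used DESeq2 1.42.0, limma 3.58.1 (pseudocount 0.5), other scalings, filters, denominators and controls, a replicate block and each library left out. Between replicates the chi-square per gene of intron reads was 1.10 to 3.46, above that of sampling alone, so none was merged. The highest, 3.46, was that of LN229 control siRNA, whose replicate 1 was left out of the fits. For exon reads the chi-square per gene was 1.49 (U251 XRN2 siRNA) to 24.8 (U251 mock), so the groups differed widely in spread. The genes and lists were chosen with earlier results of these data known. Replicate numbers and groups come from the titles. A few items are not reported here.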

Additional observations from a re-analysis of the deposited data

Results flagged for a closer look

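The ratio change of SLC6A6, the taurine transporter, differed between the lines by a test of the difference itself. LN229 minus U251 was -1.24 on the log2 scale (SE 0.23, edgeR adjusted p = 0.0020). Both LN229 XRN2 siRNA libraries (0.0477 and 0.0417) were below the LN229 controls (0.108 to 0.114), and both U251 libraries (0.0739 and 0.0717) lay within the U251 controls (0.0615 to 0.0821). The exon reads rose in LN229 (262 to 654 CPM), and U251 mock replicate 2 had 199 CPM against 449 to 502 CPM in the other U251 controls. Across 23 alternatives the adjusted p ran from 8.7e-07 to 1.0 and 18 kept the call. The call was lost by DESeq2, with control siRNA alone, with all 4 LN229 controls and without 2 single libraries. Without LN229 XRN2 siRNA replicate 2 the difference was -1.14 (adjusted p = 0.22), and without U251 XRN2 siRNA replicate 1 it was -1.22 (adjusted p = 0.057). Groups of 2 were too small for a check of single samples.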

How the results depend on the processing

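Counts here are genes of the 296 called by edgeR unless another tool is named. In LN229 16 ratios were called, 1 by DESeq2, 1 with control siRNA alone as the control, 0 with all 4 controls, and 1 to 22 with each library left out. In U251 the count was 1, and it was 0 by DESeq2, with all 4 LN229 controls or with the line fitted alone, 2 with separate scaling, no filter or exon-exon reads as denominator, 3 with mock alone or control siRNA alone, 4 by limma or with mock and control siRNA as separate levels, and 0 to 3 with each library left out. In the mean of both lines it was 21, 2 by DESeq2, 8 with control siRNA alone, 0 with all 4 controls and 6 to 22 with each library left out. For the difference between lines it was 1, 0 by DESeq2, with control siRNA alone or with all 4 controls, 2 with exon-exon reads, and 0 to 4 with each library left out. Intron reads in LN229 were called in 20, in 0 with all 4 controls and in 1 to 50 with each library left out, and in U251 in 0 to 3. Exon reads in LN229 were called in 51, in 26 with all 4 controls and in 5 to 103 with each library left out, and in U251 in 0 to 8.

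The median LN229 change of these genes, -0.12, was 0.00068 with separate scaling, -0.086 with exon-exon reads, -0.075 with control siRNA alone, 0.066 with all 4 controls, and -0.15 to -0.087 with each library left out, so its sign depended on the scaling and on the controls. The cause was not tested. No gene named for its call changed sign under any alternative run. A term for the replicate number (replicate block) gave 19 calls in LN229, 3 in U251, 23 in the mean, 2 for the difference and 32 for intron reads in LN229. Same-numbered libraries deviated together at r = 0.10 (LN229 mock and XRN2 siRNA), -0.042, 0.21 and 0.23 (pairs of U251 groups), so the numbers were not taken to pair the libraries. Low counts limit single genes: the median SE of a ratio change in LN229 was 0.17 here and 0.34 over all genes.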
